A study of Mus musculus with 2 samples.

Results

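The barcodes described here are those in which mitochondrially encoded genes gave a large part of the RNA: at least 500 unique molecular identifiers (UMIs, one per captured RNA molecule) and over 10% of them from genes whose symbols start with mt-. They numbered 26 of 182 barcodes with at least 500 UMIs in the library from the MARCH1-/- host (14.3%, exact binomial interval 9.55 to 20.2%) and 73 of 425 in the library from the WT host (17.2%, 13.7 to 21.1%), 99 of 607 in all. They were chosen by their measured mitochondrial share, so that share and every gene difference from other barcodes of the same library are descriptions and carry no test. They were set against kept barcodes of no more than 10% mitochondrial UMIs, with the same minimum of UMIs and 250 or more genes seen, which numbered 156 in the MARCH1-/- host library and 352 in the WT host library.

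Both libraries held donor CD4 T cells recovered from the lungs of recipient mice, with 1 library per host genotype. The donors were wild type mice exposed to the allergen house dust mite as an extract on day 0 and on days 7 to 11. Their lung CD4 T cells were taken on day 14, stained with the dye Cell Trace Violet, of which each division leaves less per cell, and transferred into MARCH1-/- or wild type C57BL/6 hosts, which were then challenged with the same extract. On day 4 after challenge the donor cells with low dye were sorted from the host lung. The host differs in MARCH1, which marks MHC class II and CD86 with ubiquitin and so takes them off the surface of antigen-presenting cells, while the sequenced donor cells were wild type in both libraries; no UMI of March1 was found in any class of barcodes. With 1 library per host there was no replicate, and no p-value is given. Intervals are 95% intervals that cover counting error only.

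Mitochondria transcribe a small circular genome into messenger RNAs for subunits of the respiratory chain, and these RNAs lie inside a double membrane. Most other messenger RNAs are in the cytosol, while some long noncoding RNAs, such as Xist and Malat1, stay in the nucleus. In single-cell work a high mitochondrial share is widely used as a sign of damaged or dying cells whose cytosolic RNA has leaked out, and such barcodes are often left out of analyses; cells rich in mitochondria can also have one.

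The library from the MARCH1-/- host held 1934068 UMIs and that from the WT host 3753437. High-mitochondrial barcodes gave 1.57% and 2.08% of these, against 81.5% and 68.5% from kept barcodes. A barcode sequence was often listed in both libraries, for 24 of 26 high-mitochondrial barcodes of the MARCH1-/- host and 44 of 73 of the WT host, but never with more than 9 UMIs in the other library. A doublet caller, Scrublet, marked 10 and 12 barcodes in the MARCH1-/- host and WT host libraries, none of them high-mitochondrial.

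High-mitochondrial barcodes held few molecules from the nuclear genome, while their number of mitochondrial molecules was close to that of kept barcodes. In the MARCH1-/- host the non-mitochondrial UMIs had a median of 790 per high-mitochondrial barcode and 7833 per kept barcode, a 9.91-fold difference. The WT host medians were 678 and 5911, an 8.72-fold difference. Mitochondrial UMIs had a median of 285.5 per high-mitochondrial barcode (66 to 1224) and 217 per kept barcode (13 to 1238) in the MARCH1-/- host. Those of the WT host had a median of 172 (71 to 697) and 150 (1 to 942). The ranges overlapped almost fully, and 16 of 26 and 45 of 73 high-mitochondrial barcodes lay above the median of kept barcodes. The high share thus went with a small total more than with a high count of mitochondrial molecules; both enter the share by which the barcodes were chosen.

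**Figure D1:**
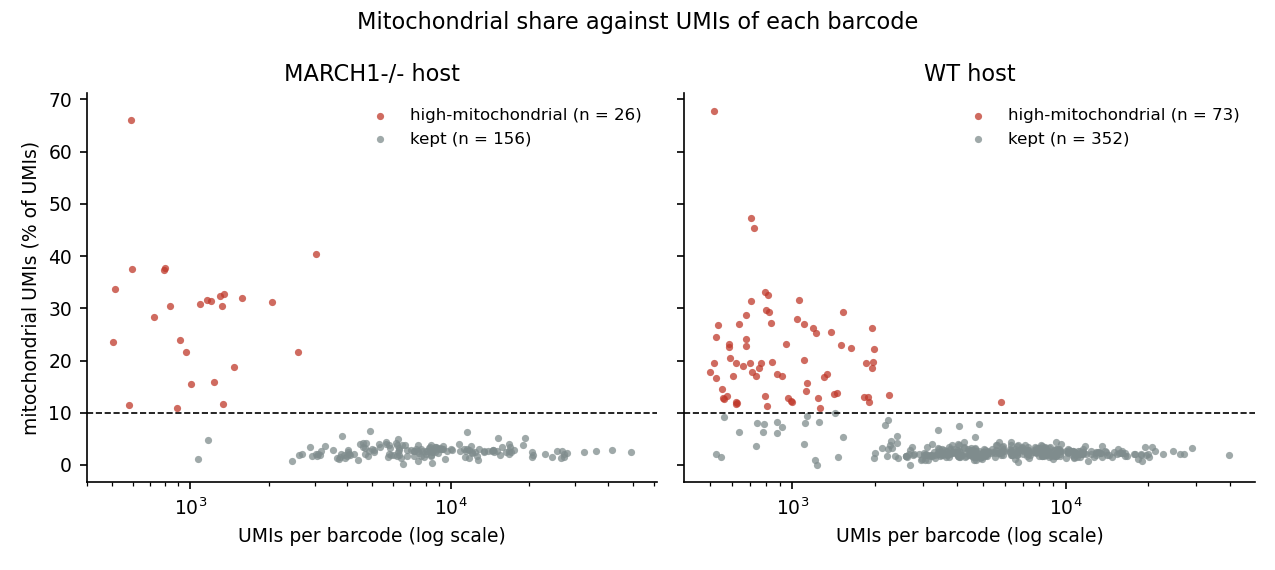
Mitochondrial UMIs as a percentage of all UMIs (vertical axis) against UMIs per barcode (horizontal axis, log scale), 1 point per barcode, for both hosts; the dashed line marks 10%. High-mitochondrial barcodes crowd at the low end of depth, with medians of 1049 UMIs in the MARCH1-/- host and 818 in the WT host, against 8017 and 6087 in kept barcodes.

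The mitochondrial share had a median of 30.6% (11.0 to 66.1%) in high-mitochondrial barcodes and 2.66% (at most 6.52%) in kept barcodes of the MARCH1-/- host. The WT host values were 19.5% (11.0 to 67.8%) and 2.38% (at most 9.9%). Of these barcodes 6 in the MARCH1-/- host lay at over 10 to 20%, 18 at over 20 to 40% and only 2 above 40%, while in the WT host the numbers were 42, 28 and 3. Few barcodes lay between 8 and 12%. Between 10 and 12% there were 3 barcodes in the MARCH1-/- host and 5 in the WT host, and between 8 and 10% there were 0 and 7 kept barcodes. A further 2 and 10 kept barcodes lay between 6 and 8%. The lower quartile of high-mitochondrial barcodes was 21.6% in the MARCH1-/- host but 13.5% in the WT host, nearer to the limit. High-mitochondrial barcodes had a median of 605 detected genes, against 2514 in kept barcodes, in the MARCH1-/- host and 494 against 1978 in the WT host; 1 such barcode in each library had under 250 genes.

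Markers of CD4 T cells, the sorted identity, were all seen (14 of 14) in the high-mitochondrial barcodes of both libraries. At least 1 marker UMI was present in 25 of 26 and 71 of 73 of them. The markers summed to 0.807% of non-mitochondrial UMIs in high-mitochondrial barcodes and 0.68% in kept barcodes of the MARCH1-/- host, and to 0.819% and 0.506% in the WT host. Cd4, the coreceptor itself, had 687 counts per 1000000 non-mitochondrial UMIs (CPM) in high-mitochondrial barcodes, against 282 CPM in kept barcodes, in the MARCH1-/- host, and 1580 against 495 CPM in the WT host. The markers did not all go this way. Of 7 with enough UMIs in the MARCH1-/- host, 3 were a larger share than in kept barcodes and 4 a smaller one. Of 13 in the WT host, 9 were larger and 4 smaller. Over all genes with enough UMIs, 50 of 301 and 329 of 862 were a larger share. Markers of NK cells, neutrophils, eosinophils, mast cells and platelets were at 0 UMIs in high-mitochondrial barcodes of both libraries. CD8 T cell markers had 0 and 1 UMI, and B cell markers 3 and 1, all from Ighm. Macrophage markers had 1 and 14 UMIs, all of them from Ctss. The endothelial markers summed to 137 CPM in high-mitochondrial barcodes and 64.6 CPM in kept barcodes of the MARCH1-/- host, from 3 UMIs, and to 304 and 71.4 CPM in the WT host, from 19 UMIs of 3 of 10 markers, a log2 ratio of 2.09 (1.32 to 2.77). Dendritic cell markers had 0 UMIs in the MARCH1-/- host and, from 8 UMIs of 3 of 13 markers, 128 and 32.7 CPM in the WT host, a ratio of 1.97 (0.71 to 3.01). Plasma cell markers had 256 and 114 CPM in the WT host, macrophage markers 224 and 117 CPM, and epithelial markers 160 and 91.3 CPM. The endothelial markers seen in the WT host were Pecam1, Cldn5 and Calcrl, and the dendritic cell markers Cd74, H2-Aa and Fscn1. Its plasma cell UMIs came from Xbp1 and its epithelial UMIs from Hopx and Scgb1a1. No barcode held more than 3 UMIs of any of these lists. Other members of the lists, among them Cdh5, Vwf, Kdr, H2-Ab1, Flt3, Itgax, Lyz2, Csf1r and Epcam, were at 0. The part of these markers in the results was not tested. Of 10 ILC2 markers 8 and 7 were seen, among them genes that T cells also express, such as Gata3, Rora and Il7r. The ILC2 list held 58 and 160 UMIs, and the CD4 T cell list 176 and 512.

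The fewer UMIs were not shared evenly among genes. A mean of 839 non-mitochondrial UMIs per high-mitochondrial barcode, against 9830 per kept barcode, made 8.54% in the MARCH1-/- host, and 857 against 7130 made 12% in the WT host. Mitochondrially encoded RNAs stood at 123% and 118% of the kept level per barcode. Xist, the X-inactivation RNA that coats a chromosome inside the nucleus, averaged 5.42 UMIs per high-mitochondrial barcode and 7.91 per kept barcode in the MARCH1-/- host, and 4.38 and 5.87 in the WT host, which is 68.6% and 74.6%. The nuclear-retained long noncoding RNAs as a list stood at 39.4% and 31.3%, and splicing factor messages at 22.2% and 26.6%. At the other end, actin cytoskeleton genes stood at 2.42% and 4.57%, the nuclear-encoded respiratory chain at 2.42% and 3.99%, and cytosolic ribosomal proteins at 1.88% and 3.19%. In counts, ribosomal protein genes gave a mean of 42.0 UMIs per high-mitochondrial barcode and 2230 per kept barcode in the MARCH1-/- host, and 63.5 and 1990 in the WT host. The thymosin Tmsb4x, which binds actin monomers, averaged 2.08 UMIs against 282 in the MARCH1-/- host and 2.85 against 178 in the WT host.

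**Figure D2:**
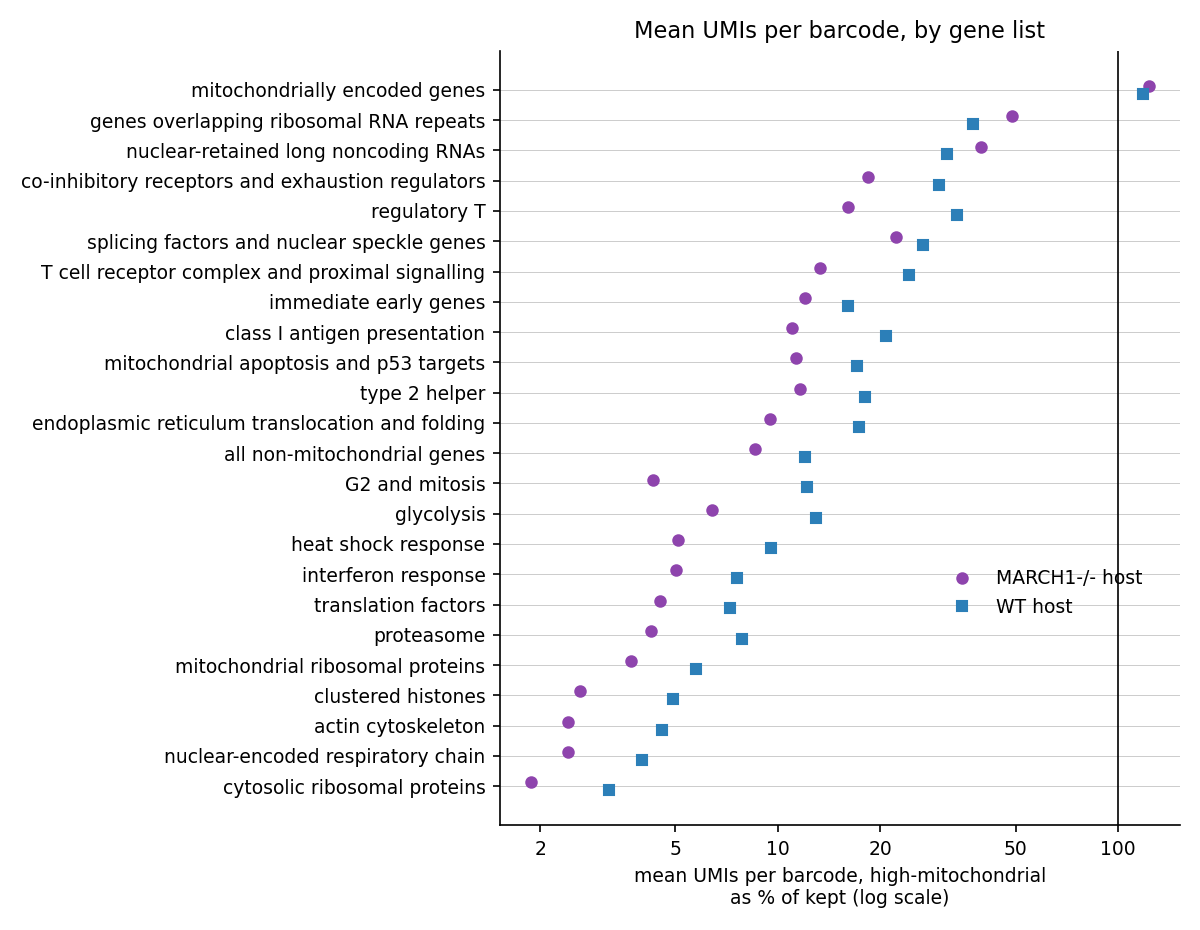
Mean UMIs per high-mitochondrial barcode as a percentage of the mean per kept barcode (log scale), by gene list, for the MARCH1-/- host (circles) and the WT host (squares); the line marks 100%. Mitochondrially encoded genes lie at 123% and 118%, all non-mitochondrial genes at 8.54% and 12%, and ribosomal protein genes lowest at 1.88% and 3.19%.

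From here on values are shares of the non-mitochondrial UMIs, and ratios are log2 of high-mitochondrial over kept barcodes. A gene was called at a difference of at least 2-fold with an interval clear of no difference, and only genes whose expected number of UMIs in the smaller class reached 10 were counted. Of 301 genes in the MARCH1-/- host, 15 were called higher (4.98%) and 189 lower (62.8%). Of 862 genes in the WT host, 148 were called higher (17.2%) and 331 lower (38.4%). The median gene was itself shifted, by -1.54 in the MARCH1-/- host and -0.55 in the WT host. Over the 300 genes counted in both libraries the medians were -1.54 and -1.25, so the larger number of rarer genes counted in the WT host goes with its smaller shift. After centring on the median gene, the calls were 75 higher and 39 lower in the MARCH1-/- host and 247 and 190 in the WT host, so the split between higher and lower depends on the scaling. The filter rests on expression in both classes pooled, which kept barcodes dominate; many genes rare in kept barcodes were thus not counted.

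Both libraries gave much the same order of genes. Of 300 genes counted in both, 274 had the same sign, with a Pearson r of 0.86 and a Spearman correlation of 0.85 across genes, which are not independent replicates. The genes called higher in both numbered 12, which was 80.0% of those called higher in the MARCH1-/- host and 44.4% of those in the WT host that could be counted in both. Those called lower in both numbered 159 (84.6% and 93.0%), and 0 genes were called in opposite directions.

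Nuclear-retained long noncoding RNAs formed 6.51% of UMIs in high-mitochondrial barcodes and 1.41% in kept barcodes of the MARCH1-/- host, a log2 ratio of 2.21 (2.13 to 2.28). Their share in the WT host was 5.72% and 2.20%, a ratio of 1.38 (1.33 to 1.43). Of the list, 2 of 2 genes counted in the MARCH1-/- host and 3 of 3 in the WT host were called higher, against 4.98% and 17.2% of all counted genes. Malat1 (ENSMUSG00000092341, GRCm38 chr19:5795690-5802672), an RNA of nuclear speckles, had 55000 CPM in high-mitochondrial barcodes and 12900 CPM in kept barcodes of the MARCH1-/- host, and 49600 and 20700 CPM in the WT host. It made the largest single contribution to the list, and its log2 ratios were 2.09 and 1.26. Against the 20 kept barcodes of the WT host that were as shallow as the high-mitochondrial ones, both signs turned, to -0.42 for the list and -0.54 for Malat1.

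Xist (ENSMUSG00000086503, GRCm38 chrX:103460366-103483254) had 6460 CPM in high-mitochondrial barcodes and 805 CPM in kept barcodes of the MARCH1-/- host, and 5120 and 824 CPM in the WT host. It was present in 24 of 26 and 66 of 73 high-mitochondrial barcodes, and its log2 ratios were 3.01 (2.74 to 3.26) and 2.63 (2.46 to 2.80). Tsix, the antisense partner of Xist, had ratios of 4.25 and 3.67 from 29 and 103 UMIs, but reads of overlapping genes may have been split between them, so its own level is uncertain. Neat1, the scaffold RNA of paraspeckles, had 1280 CPM in high-mitochondrial barcodes and 147 CPM in kept barcodes of the MARCH1-/- host, and 432 and 139 CPM in the WT host. Kcnq1ot1, a nuclear RNA of an imprinted region, had ratios of 2.67 and 1.78. Neither Neat1 nor Kcnq1ot1 had enough UMIs to be counted, and Kcnq1ot1 lies across Kcnq1.

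Messages of splicing and nuclear speckle proteins were also a larger share. The list had log2 ratios of 1.38 and 1.15 in its sum, with 2 of 5 genes called higher in the MARCH1-/- host and 11 of 21 in the WT host, and 0 lower in either. Over all counted genes 4.98% and 17.2% were called higher. Srrm2, a large speckle scaffold protein, had 2380 CPM in high-mitochondrial barcodes and 542 CPM in kept barcodes of the MARCH1-/- host, and 1570 and 504 CPM in the WT host. Son, another speckle scaffold, had log2 ratios of 1.5 and 1.54. Ddx5, an RNA helicase, had ratios of 0.73 and 1.02. Srsf3, a shorter splicing factor, had -0.16 (-1.23 to 0.72) and 0.14 (-0.58 to 0.78), which does not differ from 0 beyond counting error.

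Genes that overlap ribosomal RNA repeats, which catch stray ribosomal RNA reads, had summed ratios of 2.51 and 1.64. Gm42418 had 17600 CPM in high-mitochondrial barcodes and 3160 CPM in kept barcodes of the MARCH1-/- host, and 7370 and 2810 CPM in the WT host. It lies over AY036118, and the 2 cannot be separated with certainty. The same list was still higher in barcodes of 10 to 100 UMIs, with ratios over kept barcodes of 4.65 and 2.97. Of these low barcodes 83 of 1677 in the MARCH1-/- host library and 139 of 56069 in the WT host library had at least 500 UMIs in the other library.

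Ribosomal protein genes were the largest class of lower genes. They formed 5.0% of UMIs in high-mitochondrial barcodes and 22.7% in kept barcodes of the MARCH1-/- host, and 7.41% and 28.0% in the WT host. Of the counted genes 73 of 76 and 73 of 77 were called lower and 0 higher, with median log2 ratios of -2.34 and -2.05. Rpl41 had 733 CPM in high-mitochondrial barcodes and 4160 CPM in kept barcodes of the MARCH1-/- host, and 1660 and 7110 CPM in the WT host. Of the translation factors 1 was called higher and 6 lower of 13 in the MARCH1-/- host and 0 and 7 of 22 in the WT host, shares of lower genes below the 62.8% and 38.4% of all counted genes. Tpt1, the translationally controlled tumour protein, had ratios of -2.60 and -2.24, while Eef1a1, the main elongation factor, had -0.84 and -0.63 and Eef2, which moves the ribosome along, had 0.04 and 0.57.

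The barcodes were chosen by their mitochondrial RNAs, so the level of those RNAs is no result to set nuclear genes against. The nuclear-encoded respiratory chain, whose proteins work beside the mitochondrially encoded subunits, was a smaller share than in kept barcodes. Its summed ratios were -1.82 and -1.59, with 17 of 21 genes called lower in the MARCH1-/- host and 50 of 59 in the WT host. The shares called lower over all counted genes were 62.8% and 38.4%. Atp5e, a subunit of ATP synthase, had 91.7 CPM in high-mitochondrial barcodes and 884 CPM in kept barcodes of the MARCH1-/- host, and 144 and 1730 CPM in the WT host. Atp5j2 and Atp5h, also ATP synthase subunits, had 1 and 0 UMIs in the MARCH1-/- host, and ratios of -2.03 and -2.13 in the WT host. Cox4i1, of cytochrome c oxidase, had ratios of -2.73 and -1.87. Mitochondrial ribosomal proteins had summed ratios of -1.20 and -1.07 with 7 of 9 genes called lower in the WT host, and the mitochondrial import list had -0.82 and -0.57.

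Actin cytoskeleton genes had summed ratios of -1.82 and -1.40, with 15 of 25 genes called lower in the MARCH1-/- host and 10 of 33 in the WT host. These shares were no larger than the 62.8% and 38.4% of all counted genes. Tmsb4x (ENSMUSG00000049775, GRCm38 chrX:167207093-167209315) had 2470 CPM in high-mitochondrial barcodes and 28700 CPM in kept barcodes of the MARCH1-/- host, and 3330 and 24900 CPM in the WT host. It was thus 11.6- and 7.5-fold lower. Tmsb10, a second thymosin, had ratios of -2.94 and -2.30, and Actb, beta-actin, -1.74 and -1.02. Further genes among the 12 lower genes farthest from no difference follow. The calcium-binding proteins S100a6, S100a10 and S100a11 had ratios of -2.67, -2.82 and -3.30 in the MARCH1-/- host and -2.24, -2.11 and -1.75 in the WT host. Crip1, a LIM-domain protein, had -2.72 and -2.21, and Nme2, a nucleoside diphosphate kinase, -2.92 and -2.39.

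The list of translocation and folding genes of the endoplasmic reticulum, where membrane and secreted proteins are made, held genes called in both directions. It had 1 gene called higher and 2 lower of 6 in the MARCH1-/- host and 6 and 4 of 17 in the WT host. Over all counted genes 4.98% and 17.2% were called higher, and 62.8% and 38.4% lower. The chaperone Hspa5 had 1190 CPM in high-mitochondrial barcodes and 550 CPM in kept barcodes of the MARCH1-/- host, and 959 and 446 CPM in the WT host. Hsp90b1, another chaperone of this compartment, had ratios of 0.73 and 1.63. The short messages Sec61b and Sec61g, of the translocation channel, were low: Sec61b had 0 UMIs in the MARCH1-/- host, against 591 CPM in kept barcodes, and a ratio of -3.18 in the WT host, and Sec61g had -1.82 and -2.56. For class I antigen presentation the heavy chains H2-K1 and H2-Q7 had ratios of 1.0 and 1.3 in the MARCH1-/- host and 1.3 and 1.57 in the WT host, while the light chain B2m had -1.09, or 0.45 after centring, and -0.77. Reads of the class I genes may be split among near-identical copies.

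By annotation, exons of Furin, Tox, Ikzf2, Stat4, Srrm2 and Luc7l2 overlap those of another gene, and their counts carry the same uncertainty as Tsix. The 12 higher genes farthest from no difference in both libraries included Tsix and Xist, and the others were protein-coding. Furin (ENSMUSG00000030530, GRCm38 chr7:80388585-80405436), a protease that processes proproteins, had 1330 CPM in high-mitochondrial barcodes and 218 CPM in kept barcodes of the MARCH1-/- host, and 3870 and 777 CPM in the WT host. Tnfsf8, the ligand of CD30, had 1880 and 282 CPM in the MARCH1-/- host, and 2970 and 745 CPM in the WT host. Akap13, a very long message for an anchor protein of kinases, had 2660 and 604 CPM in the MARCH1-/- host, and 1920 and 470 CPM in the WT host. Of these 3, only Akap13 had enough UMIs to be counted in both libraries, and its log2 ratios were 2.14 and 2.03.

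The rest of the 12 were rarer. Zcchc7, of a nuclear RNA surveillance complex, had 16 and 63 UMIs in high-mitochondrial barcodes and log2 ratios of 2.76 and 2.60. Dennd4a, an exchange factor for Rab proteins, had ratios of 2.46 and 2.46. Itgav, an integrin chain, had 2.70 and 2.71, and Ptprs, a receptor phosphatase, 3.30 and 2.70. Adamts6, Ece1 and Phykpl had 7 to 9 UMIs in the MARCH1-/- host and 14 to 27 in the WT host, with ratios from 3.11 to 4.18; Phykpl overlaps Hnrnpab.

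Genes of the T cell receptor complex and nearby signalling were a larger share in sum, but had fewer UMIs per barcode. Their mean per barcode stood at 13.3% and 24.2% of that in kept barcodes, against 8.54% and 12% for all non-mitochondrial genes. Of the genes counted, 4 lay above 0 and 4 below in the MARCH1-/- host, with a median of -0.09. In the WT host 13 lay above and 5 below, with a median of 0.72. The list of the T cell receptor complex and nearby signalling had summed ratios of 0.64 and 1.01, with 1 gene called higher and 1 lower of 8 in the MARCH1-/- host and 7 and 0 of 18 in the WT host. All counted genes were called higher in 4.98% and 17.2% of cases, and lower in 62.8% and 38.4%. Ptprc, the CD45 phosphatase, had 3570 CPM in high-mitochondrial barcodes and 924 CPM in kept barcodes of the MARCH1-/- host, and 4670 and 1170 CPM in the WT host. The constant chains Trac and Trbc2 stood at 5.36% and 4.33% of kept per barcode in the MARCH1-/- host, below all non-mitochondrial genes. Their means there were only 0.269 and 0.577 UMIs per high-mitochondrial barcode. In the WT host they stood at 23.3% and 16.1%, above all non-mitochondrial genes. The CD3 chains, which have short messages, did not share the larger share of Ptprc. Cd3d had ratios of -1.30 (-2.75 to -0.18; 0.23 after centring) and -0.55 (-1.11 to -0.05), while those of Cd3e, at 0.26 and -0.31, and of Cd3g, at -0.19 and 0.20, had intervals that included 0.

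The co-inhibitory receptors and exhaustion regulators had summed ratios of 1.11 and 1.31, with 1 of 2 genes called higher in the MARCH1-/- host and 6 of 7 in the WT host. Over all counted genes the shares called higher were 4.98% and 17.2%. Tox, a transcription factor of chronically stimulated T cells, had 642 CPM in high-mitochondrial barcodes and 88.7 CPM in kept barcodes of the MARCH1-/- host, where it had too few UMIs to be counted, and 863 and 214 CPM in the WT host. Ctla4 had ratios of 0.86 and 1.26, Pdcd1, which codes for PD-1, 1.07 and 1.33, and Lag3 1.98 and 1.38. Ikzf2, the Helios factor found in many regulatory T cells, had 1390 CPM in high-mitochondrial barcodes and 146 CPM in kept barcodes of the WT host, a ratio of 3.25 (2.89 to 3.59), and 504 and 172 CPM in the MARCH1-/- host, a ratio of 1.55 (0.53 to 2.41). The regulatory T list as a whole had 0.91 and 1.48. Its defining factor Foxp3 had 176 CPM in high-mitochondrial barcodes and 38.3 CPM in kept barcodes of the WT host, a ratio of 2.20 (1.15 to 3.1) from 11 UMIs, too few to be counted. For the MARCH1-/- host it had 0 UMIs against 36.5 CPM, a difference not detectable at this depth. Stat4 and Rora, regulators of type 1 and type 17 helper cells, had ratios of 2.27 and 1.67 in the MARCH1-/- host and 2.58 and 2.35 in the WT host. Their lists differed from them: the type 1 and cytotoxic list had -0.11 (-0.72 to 0.43) and 1.10 (0.88 to 1.31) in its sum, and the type 17 helper list 1.06 (0.56 to 1.51) and 1.47 (1.22 to 1.71). Nkg7, a granule protein of cytotoxic cells, had -0.32 and -0.12, and the chemokine receptor Cxcr6 -0.57 and 0.25, all with intervals that included 0. Many of these messages are long, and how far the length pattern below accounts for them was not tested.

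The cytokines of type 2 helper cells were a smaller share in the WT host, while in the MARCH1-/- host a difference was not detectable at this depth. Il4 had 0 UMIs against 190 CPM in kept barcodes of the WT host, at least 3.96-fold lower at the floor of 3 UMIs over the group. Il5 had 0 UMIs there against 150 CPM, at least 3.13-fold lower. Il13 had 112 CPM in high-mitochondrial barcodes and 806 CPM in kept barcodes, a ratio of -2.85 (-4.16 to -1.80). In the MARCH1-/- host the same 3 genes had 0, 1 and 4 UMIs, which is 0, 45.8 and 183 CPM, against 73.7, 17 and 340 CPM in kept barcodes. The ratio of Il13 there was -0.89 (-2.77 to 0.48). Gata3, the factor that directs the type 2 programme, had -0.16 and 0.27, with intervals that included 0. The type 2 helper list, which also holds Furin, had 0.45 and 0.58 in its sum, with 0 genes counted in the MARCH1-/- host and 1 called higher and 3 lower of 10 in the WT host. These shares were no larger than the 17.2% and 38.4% of all counted genes of the WT host. Without Furin the sum was -0.03 (-0.44 to 0.34) and -0.16 (-0.34 to 0.02), so 1 gene carried the positive value.

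Proliferation genes did not move as 1 group. Mki67, present in dividing cells, had ratios of 0.30 (-0.58 to 1.05) and 1.19 (0.74 to 1.62), and Top2a, a topoisomerase of dividing cells, 0.10 and 1.43. Hmgb2, a small chromatin protein, had -1.87 and -1.11, and Stmn1, which destabilises microtubules, -3.12 and -0.79. The clustered histones had -1.70 and -1.30 in their sum. Of their counted genes 2 of 3 and 4 of 5 were called lower, against 62.8% and 38.4% of all counted genes.

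Ratios of the stress lists were small beside those of the nuclear RNAs. The list of mitochondrial apoptosis and p53 targets had summed ratios of 0.40 (-0.01 to 0.79) and 0.51 (0.26 to 0.75), with 0 genes counted in the MARCH1-/- host and 0 of 1 called in the WT host. The integrated stress response had 0.00 (-0.60 to 0.55) and 0.67 (0.39 to 0.93), the immediate early genes 0.50 and 0.42, and the heat shock list -0.74 and -0.34. The heat shock list had 3 of 5 and 2 of 6 genes called lower, shares no larger than those of all counted genes. The chaperone Hsp90aa1 had opposite signs, -1.5 (-3.12 to -0.27) in the MARCH1-/- host and 0.55 (0.07 to 0.99) in the WT host; the difference was not tested.

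The ratio followed the length of the message. Lengths were the median of a gene's annotated transcripts in GENCODE M21. In the MARCH1-/- host the median log2 ratio was -2.60 for 48 genes under 600 nt, -1.87 from 600 to under 1000 nt, -1.39 from 1000 to under 2000 nt, -0.55 from 2000 to under 4000 nt, 0.46 for 17 genes from 4000 to under 8000 nt and 1.03 for 8 genes at 8000 nt and over. For the WT host the same bins gave -1.94, -1.48, -0.65, 0.49, 0.89 and 1.52, the last from 17 genes. The Spearman correlation across genes was 0.61 (301 genes) and 0.69 (861 genes), and 0.65 and 0.69 among protein-coding genes without ribosomal proteins. The bins of 8 and 17 genes are thin, but the order held in the fuller bins below them. Ribosomal proteins were low at every length. The ratio also fell with the level in kept barcodes, with a Spearman correlation of -0.41 in both libraries, and length and level are not independent of each other.

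**Figure D3:**
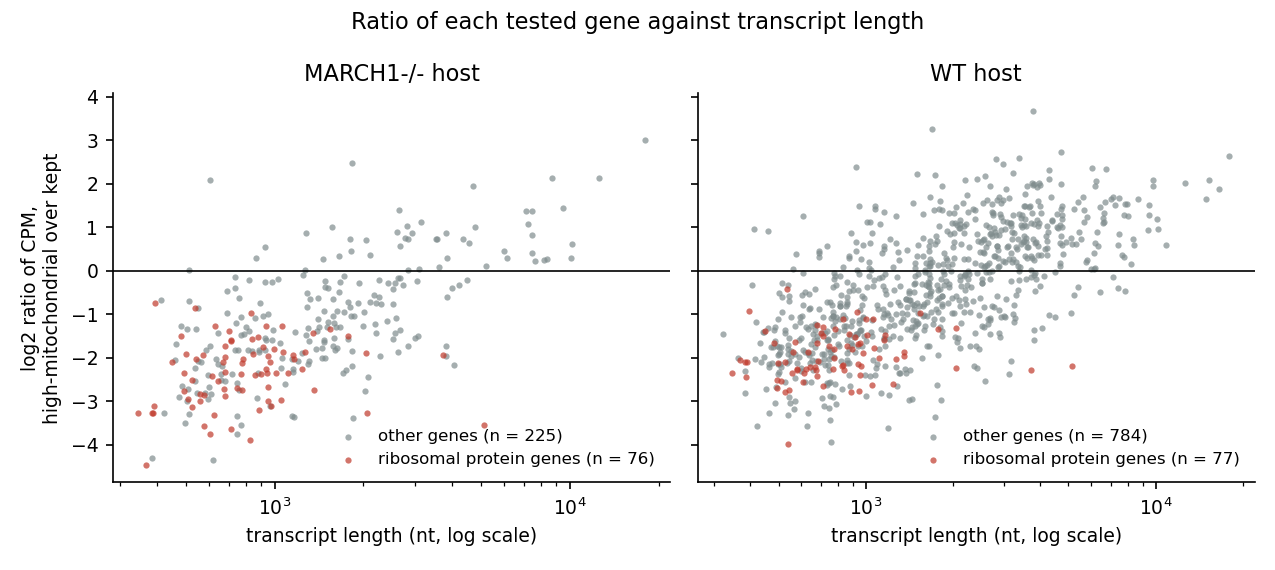
Log2 ratio of CPM, high-mitochondrial over kept barcodes, against transcript length in nucleotides (log scale), 1 point per counted gene, with ribosomal protein genes in red. The median runs from -2.60 under 600 nt to 1.03 at 8000 nt and over in the MARCH1-/- host, and from -1.94 to 1.52 in the WT host.

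Summed over all genes, transcripts under 600 nt formed 2.85% of UMIs in high-mitochondrial barcodes and 11.5% in kept barcodes of the MARCH1-/- host, and 5.65% and 19.5% in the WT host. Transcripts from 4000 to under 8000 nt formed 21.9% and 9.89% in the MARCH1-/- host, and 21.7% and 9.40% in the WT host. Among protein-coding genes other than ribosomal proteins, the share under 600 nt was 1.52% and 6.68% in the MARCH1-/- host, and 2.97% and 12.2% in the WT host. Malat1, whose annotated transcripts have a median under 1000 nt although the full RNA is much longer, counts among the short ones in these sums. The pattern was seen barcode by barcode. The share under 1000 nt had a median of 15.9% (9.29 to 23.4%) in high-mitochondrial barcodes and 38.2% (24.6 to 44.7%) in kept barcodes of the MARCH1-/- host, with no overlap. The WT host had 19.6% (9.58 to 36.5%) and 46.8% (15.7 to 65.4%), and 71 of 73 high-mitochondrial barcodes lay below the 5th percentile of kept barcodes.

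Barcodes of 10 to 100 UMIs were unlike both in part. They held 1.37% mitochondrial UMIs in the MARCH1-/- host and 0.437% in the WT host, and transcripts under 600 nt formed 11.7% and 22.1% of their non-mitochondrial UMIs. Their length profile was near that of kept barcodes, and Malat1 and its list were below the kept level there, with ratios for the list of -0.38 and -1.17. High-mitochondrial barcodes thus differed from these low barcodes in the same direction as from kept barcodes in transcript length and in nuclear long noncoding RNA.

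**Figure D4:**
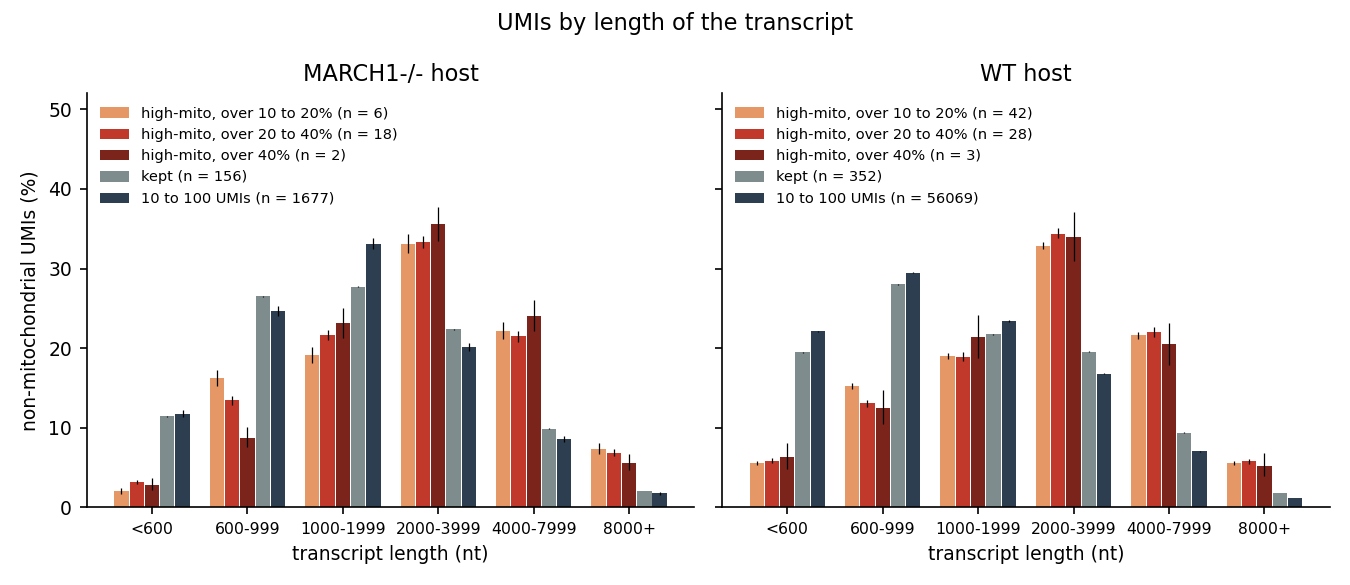
Percentage of non-mitochondrial UMIs by transcript length for high-mitochondrial barcodes in 3 ranges of mitochondrial share, kept barcodes and barcodes of 10 to 100 UMIs (bars, with 95% counting intervals). In both hosts all 3 ranges lie below kept barcodes under 1000 nt and above them from 2000 nt up.

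Within the high-mitochondrial barcodes the nuclear RNAs varied with the mitochondrial share. The nuclear-retained long noncoding RNAs of the MARCH1-/- host formed 10.7% of UMIs at over 10 to 20% mitochondrial share, 5.56% at over 20 to 40% and 1.59% in the 2 barcodes above 40%. Those of the WT host formed 6.5%, 4.29% and, in 3 barcodes, 3.43%. Ribosomal proteins ran the other way, at 3.58%, 5.42% and 6.02% in the MARCH1-/- host and 7.15%, 7.80% and 9.96% in the WT host. Per barcode, Spearman's rank correlation between the mitochondrial share and Malat1 was -0.53 over 26 barcodes and -0.37 over 73, and with ribosomal proteins 0.43 and 0.36. The barcodes with the largest mitochondrial shares were thus not those richest in nuclear RNA.

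Just inside and just outside the limit of 10% the profiles of the WT host were near each other, from few barcodes. The 5 barcodes at 10 to 12% had 11.1% nuclear-retained long noncoding RNA and 4.33% of UMIs from transcripts under 600 nt. The 7 kept barcodes at 8 to 10% had 7.91% and 6.42%. All kept barcodes had 2.20% and 19.5%. In the MARCH1-/- host the 3 barcodes at 10 to 12% had 13.6% nuclear-retained long noncoding RNA, and no kept barcode lay at 8 to 10%.

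Depth and the mitochondrial share could largely not be told apart, because few kept barcodes were as shallow as the high-mitochondrial ones. In the WT host 20 kept barcodes fell in the same range of non-mitochondrial UMIs, and their mitochondrial share had a median of 6.28%. Against these 20, ribosomal proteins were 7.41% in high-mitochondrial barcodes and 13% in kept barcodes, and transcripts under 1000 nt were 20.2% and 31.1%. Malat1 was 49600 CPM and 71900 CPM, the reverse of its difference from all kept barcodes, and Xist 5120 CPM and 2990 CPM. Akap13 had a log2 ratio of -0.03 against these 20. The median log2 ratio of 256 counted genes was -0.02, with a Spearman correlation with length of 0.54 over 255 genes. Only 7 of the 20 had at most 5% mitochondrial UMIs, and their ribosomal protein share was 24.5%. In the MARCH1-/- host only 2 kept barcodes were as shallow, with 2169 UMIs in all, and against them the ratios of Itgav, Lag3 and the co-inhibitory list were -1.22, -0.16 and -0.37.

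Differences in detection were compared after each barcode was thinned to 300 non-mitochondrial UMIs, which left out 1 high-mitochondrial barcode in each library and kept 25 and 72. The shares given are those of 1 random draw. Any CD4 T cell marker was then seen in 84.0% of high-mitochondrial and 87.8% of kept barcodes of the MARCH1-/- host, and in 87.5% and 81.8% in the WT host. Any of the receptor genes Cd3d, Cd3e, Cd3g, Trac, Trbc1 and Trbc2 was seen in a smaller share of high-mitochondrial than of kept barcodes. In the MARCH1-/- host these were 13 of 25 and 117 of 156 barcodes. The WT host had 37 of 72 and 233 of 352. The counting intervals of high-mitochondrial and kept barcodes overlapped in both hosts. Ptprc was seen in 60.0% and 31.4% in the MARCH1-/- host, and in 69.4% and 35.8% in the WT host. Tmsb4x was seen in 60.0% and 98.1%, and in 56.9% and 96.0%. Tox was seen in 16% and 2.56%, and in 22.2% and 6.53%. Over all draws, the expected shares in the MARCH1-/- host were 55.1% and 27.8% for Ptprc and 48.5% and 99.2% for Tmsb4x. For Tox they were 16.3% and 3.06%. Without thinning, Ptprc was seen in 76.9% and 99.4% in the MARCH1-/- host and in 87.7% and 97.2% in the WT host, and Tmsb4x in 69.2% and in all kept barcodes, and in 80.8% and 98.9%. After thinning, Malat1 was near saturation, at 96.0% and 93.6%, and at 98.6% and 94.9%. No cell type that should lack these T cell genes was present to give a background level. The macrophage gene Lyz2 was at 0 in high-mitochondrial barcodes of both libraries. In the MARCH1-/- host 1 of 156 kept barcodes held it before thinning and 0 after.

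The mixture of mitochondrial RNAs was close to that of kept barcodes. Of the MARCH1-/- host, mt-Co3 formed 16.8%, mt-Atp6 18.0% and mt-Co2 14.5% of the mitochondrial UMIs of high-mitochondrial barcodes. The same 3 formed 17.6%, 11.7% and 13.6% in the WT host. Mt-Co1, a subunit of cytochrome c oxidase, formed 15.4% in high-mitochondrial barcodes and 17.4% in kept barcodes of the MARCH1-/- host, and 19.7% and 24.3% in the WT host. Its log2 differences were -0.18 and -0.30, small beside those among nuclear genes.

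Between hosts, 18 of 356 genes counted within the high-mitochondrial barcodes were called higher in the MARCH1-/- host (5.06%) and 55 lower (15.4%). The median gene was at -0.22, and at 0.01 for the same genes in kept barcodes; after centring the calls were 31 and 38. Each host is 1 library, so host and library cannot be told apart. The high-mitochondrial barcodes of the MARCH1-/- host and the WT host also differed in mitochondrial share, with medians of 30.6% and 19.5%. Within the range of over 20 to 40%, which held 18 and 28 barcodes, 13 of 186 counted genes were called higher and 40 lower. This alternative was chosen after seeing the data. The MARCH1-/- host library held fewer UMIs from short transcripts in both classes. Those under 600 nt formed 2.85% in high-mitochondrial barcodes of the MARCH1-/- host and 5.65% in those of the WT host, and 11.5% and 19.5% in kept barcodes. Among mitochondrial genes the host difference went both ways. In high-mitochondrial barcodes of the MARCH1-/- host and the WT host, mt-Nd4l formed 0.709% and 4.96% of mitochondrial UMIs. The shares of mt-Nd4 were 7.31% and 4.54%. Kept barcodes differed alike between hosts, with 0.887% and 4.76% for mt-Nd4l and 7.05% and 4.66% for mt-Nd4. The part of transcript length and of mitochondrial share in the host differences was not tested.

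The genes higher in the MARCH1-/- host included immediate early genes. Fosb, a subunit of the AP-1 factor, had 1330 CPM in high-mitochondrial barcodes of the MARCH1-/- host and 272 CPM in those of the WT host, a log2 ratio of 2.29 (1.38 to 3.25), and 1.37 in kept barcodes. Junb, its partner, had 1970 and 560 CPM, with 1.82 (1.14 to 2.50) and 0.93 in kept barcodes. The immediate early list had 0.84 in high-mitochondrial barcodes and 0.76 in kept barcodes. Slc38a2, an amino acid transporter, had 1420 and 432 CPM, a ratio of 1.72 (0.65 in kept barcodes), and Luc7l2, a splicing factor, 1650 and 480 CPM, a ratio of 1.78 (0.71 in kept barcodes). Ltb4r1, a leukotriene receptor, had 25 UMIs in 7 of 26 barcodes of the MARCH1-/- host and 17 in 13 of 73 of the WT host. The remaining 5 of the 10 named as higher, Tssc4, Avl9, Cyp20a1, Elk4 and Nrgn, had 6 to 12 UMIs in the MARCH1-/- host and 0 to 4 in the WT host, too few to be counted.

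Among the lower genes Furin had 1330 CPM in high-mitochondrial barcodes of the MARCH1-/- host and 3870 CPM in those of the WT host, a ratio of -1.54 (-2.15 to -0.98), close to -1.84 in kept barcodes. Tmsb10 had 321 and 1710 CPM, a ratio of -2.41, and -1.77 in kept barcodes. For both genes the host difference was thus present in kept barcodes too. Arl6ip1, a protein that shapes the endoplasmic reticulum, had 687 and 2800 CPM, a ratio of -2.03 (-2.89 to -1.26), against 0.09 in kept barcodes. Its 175 UMIs in the WT host came from 39 of 73 barcodes. Ndfip1, an adaptor of ubiquitin ligases, had 687 and 1970 CPM, a ratio of -1.52, against -0.01 in kept barcodes.

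Ikzf3, the Aiolos factor, had 3 UMIs in high-mitochondrial barcodes of the MARCH1-/- host and 50 in those of the WT host, and Gpr183, an oxysterol receptor that guides T cells, 3 and 49. Sytl3 had 4 and 63 UMIs and overlaps Ezr. Ifng, the cytokine of type 1 helper cells, had 0 UMIs in the MARCH1-/- host and 21 in 9 barcodes of the WT host, and Nfe2l1, a transcription factor of proteasome genes, 0 and 19; neither had enough UMIs to be counted. The sum of the type 2 helper list had a ratio of -1.01 in high-mitochondrial barcodes and -0.87 in kept barcodes, and the interferon response list -0.82 and -0.73. Ribosomal proteins had -0.57, with 1 gene called higher and 21 lower of 62, and -0.30 in kept barcodes. These 21 were a large part of the 55 genes called lower. Over all genes counted between hosts 5.06% were called higher and 15.4% lower.

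**Figure D5:**
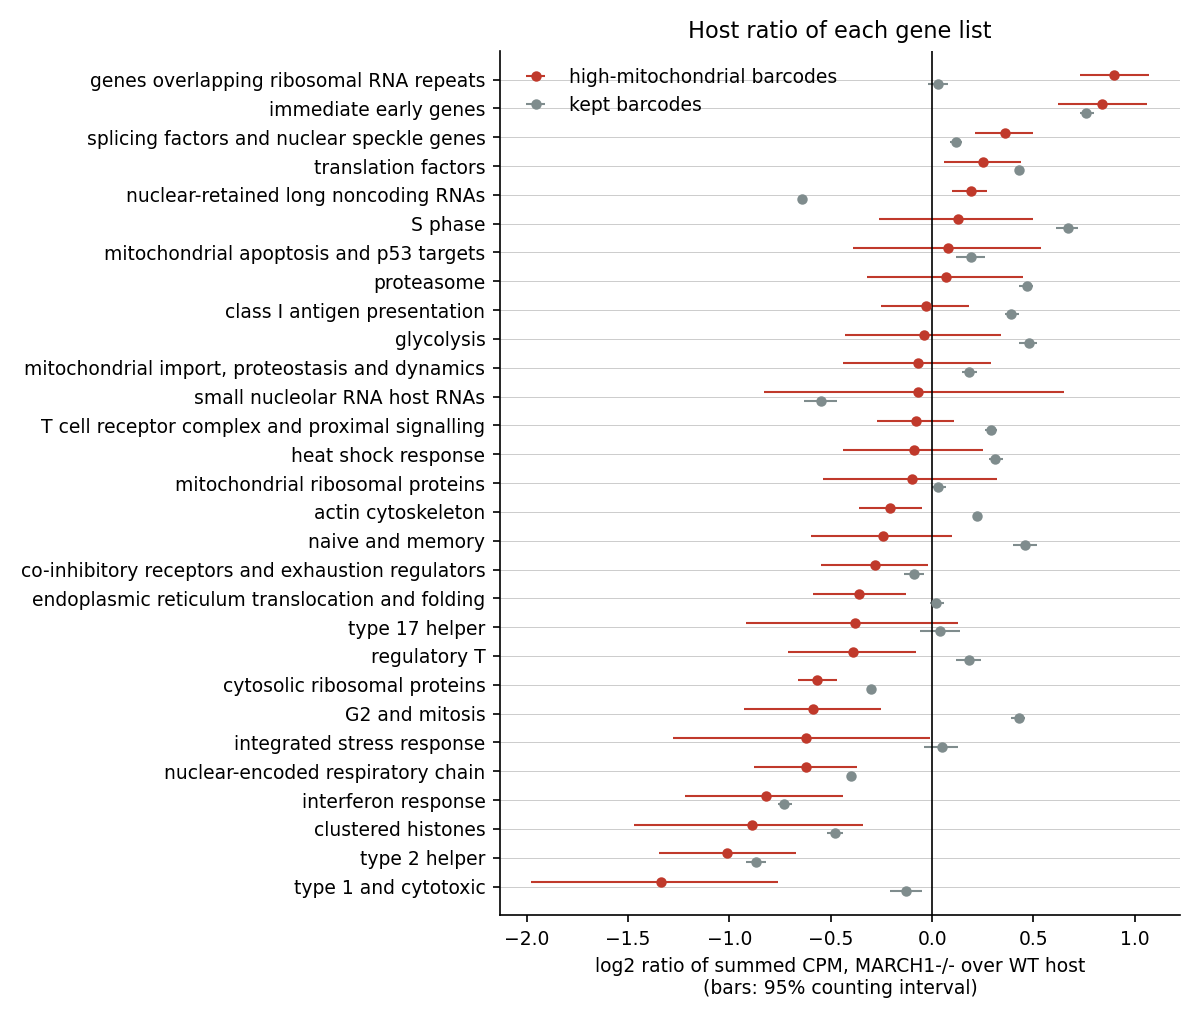
Log2 ratio of summed CPM, MARCH1-/- over WT host, by gene list, in high-mitochondrial barcodes (red) and kept barcodes (grey), with 95% counting intervals. The immediate early genes lie at 0.84 and 0.76, the type 2 helper list at -1.01 and -0.87, and the nuclear-retained long noncoding RNAs at 0.19 and -0.64.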

How the data were processed

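The deposited files hold raw counts of UMIs per gene and barcode for every barcode, before cell calling, with no normalization; per the labels, 10x Chromium chemistry (v3.1) was used, which tags the 3' ends of polyadenylated RNA. Build mm10 and Cell Ranger 3.1.0 are named per the submitters' processing notes and Cell Ranger 4 per the file headers. Which of them gave the counts, and the annotation used, are not given in the sources used here. Transcript lengths and positions came from GENCODE M21 (GRCm38), matched by gene ID for 99.89% of 14814 genes with a UMI. Reads of overlapping genes cannot always be assigned.

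UMIs were summed over the barcodes of a class and scaled to 1000000 non-mitochondrial UMIs (CPM). Intervals are exact: Poisson for sums, conditional binomial for ratios and Clopper-Pearson for shares. They treat UMIs as independent and leave out variation between barcodes and animals. A gene at 0 enters ratios at a floor of 3 UMIs. Genes counted were those whose pooled share times the smaller class total reached 10 UMIs. Named genes were the 12 higher and 12 lower farthest from no difference in both libraries, the 10 and 10 between hosts, fixed T cell genes and up to 6 of each list with the most UMIs; of the pairwise rule, at least 50 UMIs and a UMI in at least 10% of the higher class were required, and ribosomal, histone, receptor segment and unnamed genes were described as classes. One item that the rule named is not reported here. The members and lists were chosen with earlier results of these data known. The scripts were tested on simulated data. Alternatives changed the mitochondrial limit, minimum UMIs, filter, scaling, weighting, doublets, cycling barcodes, barcodes shared between libraries and the depth of kept barcodes. Doublets were called with Scrublet in scanpy 1.11.5; statistics used scipy 1.17.1, pandas 2.3.3 and numpy 2.4.6 under Python 3.11.15, and figures matplotlib 3.10.9.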

Additional observations from a re-analysis of the deposited data

Results flagged for a closer look

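Each of the following results had opposite signs in the 2 sets of barcodes or hosts compared; none of these differences was tested, since each host is 1 library. The ratio of the MARCH1-/- over the WT host was 0.19 in high-mitochondrial barcodes and -0.64 in kept barcodes for the nuclear-retained long noncoding RNAs, and 0.15 and -0.69 for Malat1, which gives most of their UMIs. The ratio was -0.21 and 0.22 for the actin cytoskeleton list, -0.39 and 0.18 for the regulatory T list, and -0.59 and 0.43 for the G2 and mitosis list. Trac, the constant chain of the T cell receptor alpha gene, had -1.20 and 0.43, the first from 7 and 46 UMIs. Hsp90aa1 had -1.59 and 0.46, and its ratio of high-mitochondrial over kept barcodes was -1.5 in the MARCH1-/- host and 0.55 in the WT host.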

How the results depend on the processing

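Counts of calls moved with several settings. In the order MARCH1-/- host higher and lower, then WT host higher and lower, counts past 1.5-fold of the 15, 189, 148 and 331 reported were as follows. Over 15% mitochondrial, WT higher fell to 63. Over 20%, MARCH1-/- higher was 9, WT higher 24 and WT lower 180. With at least 1000 UMIs, the higher counts were 7 and 57. A filter of 5 UMIs gave 65 and 435 higher, and a filter of 20 gave 5 and 46 higher and 122 lower in the MARCH1-/- host. Scaling without ribosomal proteins gave 84 higher in the WT host, and leaving out the tenth of barcodes with the most UMIs 96. Centring gave 75 and 39 in the MARCH1-/- host and 247 and 190 in the WT host. WT barcodes without a UMI in the other library gave 57 and 100, and this could not be run in the MARCH1-/- host, where 0 kept barcodes were left, or between hosts. Kept barcodes of like depth gave 2 and 2 of 5 genes counted, and 21 and 32 of 256. Without cycling barcodes the higher counts were 8 and 59.

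Between hosts the counts of 18 higher and 55 lower moved to 47 higher with a filter of 5, 3 and 26 with a filter of 20, 31 higher after centring, and 9 and 25 with the kept ratio subtracted, an alternative chosen after seeing the data. Without the largest high-mitochondrial barcode, also chosen afterwards, they were 16 and 49. The share of high-mitochondrial barcodes fell to 12% (over 15%) and 7.29% (over 20%) in the WT host, and to 8.24% and 7.84% in the MARCH1-/- host and the WT host with at least 1000 UMIs. In the MARCH1-/- host it was 12.6% (over 15%) and 11.0% (over 20%). The WT host thus had the larger share in the main setting, at 17.2% against 14.3%, but the smaller one in these alternatives. The intervals of the hosts overlapped in each.

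Besides values that turned sign, 58 of 196 list sums in the MARCH1-/- host and 86 of 209 in the WT host left the interval of the main setting. So did 61 of 593 and 134 of 714 values of genes, and between hosts 24 of 183 list sums and 28 of 481 values of genes. Signs turned in few cases among ratios that were at least 2-fold and clear of no difference. Weaker ratios that turned were not counted. Centred, Cd3d was 0.23 and B2m 0.45 in the MARCH1-/- host. Against the 2 kept barcodes of like depth there, the co-inhibitory list was -0.37, Itgav -1.22 and Lag3 -0.16. Against the 20 of the WT host, the nuclear-retained long noncoding RNAs were -0.42, Malat1 -0.54 and Akap13 -0.03. With the kept ratio subtracted, Furin was 0.29 between hosts. Without Furin, an alternative chosen after seeing the data, the type 2 helper list was -0.03 in the MARCH1-/- host, -0.16 in the WT host and -0.63 between hosts. The causes were not tested. No paired analysis was possible because each host is 1 library. Depth limits the high-mitochondrial sums to 21819 UMIs in the MARCH1-/- host and 62545 in the WT host.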

Other observations

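Further gene groups gave the following values. The interferon response list had summed log2 ratios of high-mitochondrial over kept barcodes of -0.76 (-1.13 to -0.42) in the MARCH1-/- host and -0.67 (-0.83 to -0.52) in the WT host. Ifi27l2a, a short interferon-induced message, had -1.69 and -2.22, while Ly6e had -0.26 and 0.59. Proteasome genes had -1.01 and -0.62, with 1 of 1 and 5 of 9 genes called lower. The glycolysis list had -0.42 and 0.10, with 0 called higher and 2 lower of 2 in the MARCH1-/- host and 1 and 2 of 7 in the WT host. For these 2 lists the shares over all counted genes were 4.98% and 17.2% higher, and 62.8% and 38.4% lower. The naive and memory list had 0.65 and 1.35, and in it Ets1, a lymphocyte transcription factor, had 0.70 and 1.47 and the interleukin receptor Il7r 0.49 and 1.20. The small nucleolar RNA host RNAs, which are quickly degraded in the cytosol, had -0.17 (-0.84 to 0.44) and -0.65 (-1.02 to -0.30).

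Between hosts, the ratios of further genes in high-mitochondrial and kept barcodes were as follows; none of the differences between the 2 was tested. Neat1 had a ratio of the MARCH1-/- over the WT host of 1.57 (0.76 to 2.39) in high-mitochondrial barcodes and 0.08 in kept barcodes. Gm42418, which catches ribosomal RNA reads, had 1.25 and 0.17. Ikzf2 had -1.46 (-2.52 to -0.55) and 0.23. Cd4 had -1.20 and -0.81, and the type 1 and cytotoxic list -1.34 and -0.13 in its sum, from 27 and 196 UMIs in the MARCH1-/- and the WT host.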
